A study of Homo sapiens with 16 samples.

Results

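Ribosome biogenesis and nucleolar genes were followed in xenograft tumours of U87 cells, a human glioblastoma line, in mice. The set held 38 genes chosen by name as known targets of the transcription factor MYC, and all 38 were found in both deposited expression tables, among 16957 genes that the tables share. All 38 also passed the filter on low values in both experiments, among 13933 genes tested in experiment 1 and 14208 in experiment 2. The rule that picks them uses names and no measured value.

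RNA came from 16 tumours, each from its own mouse. In experiment 1, Myc1 mice (n = 3) received exosomes loaded with siRNA number 1 against human MYC and Scr1 mice (n = 4) received exosomes with scramble siRNA number 1. In experiment 2, Myc2 mice (n = 5) received exosomes with MYC siRNA number 2 and Scr2 mice (n = 4) exosomes with scramble siRNA number 2. The labels give the exosomes as of MSC origin and the genotype of every sample as WT. In experiment 1 the hosts were nude mice, which lack mature T cells, and the luciferase-carrying U87 cells were placed orthotopically, in the brain. Dosing there was retro-orbital, every other day from day 28 after implantation, with 1e+09 exosomes in 100 µl. For experiment 2, neither host strain nor dosing schedule is given in the sources used here. All tumours were taken when the mouse met the criteria for euthanasia, so the time under treatment may have differed between mice. All tumours came from 1 cell line, and no group without exosomes was analysed here. Values are log2 CPM (read counts scaled to a common library size, on the log2 scale), made comparable within each experiment and not between experiments. These are bulk samples, so fewer tumour cells and less RNA per cell cannot be told apart, and the p-values measure the spread between mice.

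Ribosomes are assembled in the nucleolus. RNA polymerase I transcribes the ribosomal RNA precursor, small nucleolar ribonucleoproteins guide its modification, and a large set of assembly factors folds, cleaves and packages it into the small and large subunits before export. MYC is known to bind the promoters of many of these genes through the E-box, a short palindromic motif, and to raise their transcription in growing cells, together with polyamine synthesis, translation initiation factors and mitochondrial chaperones. These functions give the roles by which the genes are ordered here. The set is called ribosome biogenesis genes for short, though its 4 mitochondrial factors, 2 polyamine enzymes and 2 initiation factors have other roles.

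To show the element through which MYC is known to act on such genes, the E-box motif CACGTG was looked for in RefSeq promoter windows of build GRCh38.p14, which run from 250 bases before to 50 bases after a start site. The motif reads the same on both strands. Of the 38 genes, 33 had a window, and 17 of these (51.5%) held the motif, against 12.7% of the 9306 genes tested in both experiments that had a window and 8.77% of the 27305 genes in the RefSeq table. For the part before the start site alone, the share was 24.2% (8 of 33 genes), against 11.4% of the tested genes. The genes were chosen as MYC targets, so this share is a description of the list. Stretches of 30 bases, read 5′ to 3′ on the strand of the gene, are shown for the 5 genes with the smallest p-values in experiment 2 and for 4 further genes named below, with the motif in capitals.
BYSL: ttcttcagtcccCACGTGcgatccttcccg
ODC1: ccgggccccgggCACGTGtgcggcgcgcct
RRP9: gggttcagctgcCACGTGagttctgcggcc
EIF4E: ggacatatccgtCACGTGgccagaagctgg
FBL: tgcgctcttttcCACGTGcgaaagccccgg
HSPE1: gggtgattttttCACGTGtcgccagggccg
UTP20: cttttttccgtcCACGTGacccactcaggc
DDX21: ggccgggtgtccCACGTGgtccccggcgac
PES1: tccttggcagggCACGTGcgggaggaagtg

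The stretches lie at chr6:41921515-41921544 on the plus strand for BYSL, chr2:10448024-10448053 on the minus strand for ODC1, chr3:51941892-51941921 on the minus strand for RRP9, chr4:98929188-98929217 on the minus strand for EIF4E and chr19:39846356-39846385 on the minus strand for FBL. Those of the other genes lie at chr2:197500345-197500374 on the plus strand for HSPE1, chr12:101280083-101280112 on the plus strand for UTP20, chr10:68956604-68956633 on the plus strand for DDX21 and chr22:30591880-30591909 on the minus strand for PES1. The motif started 29 bases before the start site in ODC1, 72 in EIF4E, 22 in HSPE1, 10 in UTP20 and 31 in DDX21. It spanned the start site in RRP9. In BYSL, FBL and PES1 it began within the transcribed part, at bases 29, 7 and 14. The windows of ODC1 and EIF4E held 2 matches each, and the one nearest to the start on its upstream side is shown. The HSPE1 match is also that of HSPD1, which is transcribed from the opposite strand, and it starts 88 bases before the HSPD1 start site. By role, the motif was in 6 of 8 genes of small subunit assembly with a window, 3 of 9 of large subunit assembly and 2 of 3 of the small nucleolar ribonucleoproteins. Windows of the other ribosome assembly factors, a list of 69 genes, held it in 33.9% of 59 genes, and those of cytoplasmic ribosomal proteins in 6.78% of 59 genes. For MYC targets outside ribosome biogenesis the share was 50% of 30 genes, and 46.7% for the part before the start site alone. The share is thus not particular to the ribosome biogenesis genes. For ODC1, the 250 bases before the start site (chr2:10448013-10448262, minus strand) show the motif near the end of a GC-rich stretch, again in capitals.
ODC1 upstream: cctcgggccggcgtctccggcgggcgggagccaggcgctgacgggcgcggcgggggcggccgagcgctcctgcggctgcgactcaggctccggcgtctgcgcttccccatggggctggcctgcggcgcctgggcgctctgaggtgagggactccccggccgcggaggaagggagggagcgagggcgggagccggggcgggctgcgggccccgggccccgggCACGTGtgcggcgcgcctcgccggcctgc

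MYC, the siRNA target, was measured first. In experiment 1 it stood at 5.25, 4.73 and 3.84 log2 CPM in the Myc1 tumours, against 4.41, 4.92, 5.66 and 6.75 in the Scr1 tumours. The lowest tumour was a Myc1 tumour and the highest 2 were Scr1 tumours, but the groups overlapped. The difference was -0.83 ± 0.54 on the log2 scale (SE), with an exact two-sided permutation p of 0.314 and a limma adjusted p of 0.996. In experiment 2 MYC stood at 5.79, 5.85, 5.56, 6.17 and 5.40 log2 CPM in the tumours labelled Myc2, against 5.33, 5.14, 5.56 and 4.70 in those labelled Scr2. MYC was thus higher in the libraries labelled Myc2, by 0.57 ± 0.21 on the log2 scale, with an exact permutation p of 0.0397 and a limma adjusted p of 0.370. Without Scr2 replicate 4 the difference was 0.41, with an exact permutation p of 0.107. The MYC level therefore went against the siRNA label in experiment 2, and directions there are given by the labels.

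Some libraries stood apart from the rest. The share of genes listed at the lowest value of a library was 8.81% in Scr1 replicate 3, 5.13% in Scr2 replicate 4 and 2.58% in Scr2 replicate 1, against 0.782% to 1.84% in the other libraries. The first principal component took 31.3% of the variance in experiment 1, with Scr1 replicate 4 at its end, and 43.8% in experiment 2, with Scr2 replicates 1 and 4 at its end. Markers of the U87 line were listed for 10 of 10 genes and summed to 18442 to 20181 CPM in Myc1 and 17811 to 20124 CPM in Scr1 tumours, and to 15233 to 17154 CPM in tumours labelled Myc2 and 14460 to 19480 CPM in those labelled Scr2. None of 8 lymphocyte and erythroid markers was listed. Of 14 markers of microglia and macrophages, 6 were listed in each table, with sums of 359 to 524 CPM in Myc1 against 299 to 424 CPM in Scr1, and of 245 to 317 CPM in Myc2 against 197 to 299 CPM in Scr2, while AIF1, CX3CR1, P2RY12, TYROBP, C1QA, C1QB and C1QC were listed in neither. Of 7 astrocyte markers, 5 were listed, with sums of 324 to 402 CPM in Myc1 against 143 to 401 CPM in Scr1, and of 204 to 841 CPM in Myc2 against 169 to 488 CPM in Scr2. Of 8 neuronal markers, 5 were listed, at 263 to 364 CPM in Myc1 against 205 to 372 CPM in Scr1 and at 129 to 231 CPM in Myc2 against 121 to 215 CPM in Scr2. Of 8 oligodendrocyte markers, 4 were listed, at 149 to 187 CPM in Myc1 against 135 to 198 CPM in Scr1 and at 107 to 155 CPM in Myc2 against 121 to 142 CPM in Scr2. Of 8 endothelial markers, 5 and 6 were listed, with sums of 2.81 to 4.06 CPM in Myc1 against 3.13 to 4.74 CPM in Scr1, and of 7.74 to 56.9 CPM in Myc2 against 4.51 to 27.0 CPM in Scr2. Markers of pericytes and fibroblasts, all 8 listed, summed to 3828 to 4650 CPM in Myc1 and 3813 to 6067 CPM in Scr1, and to 4381 to 7190 CPM in Myc2 and 1757 to 6158 CPM in Scr2. The mice themselves supply host cells, whose reads may or may not have been counted, and the part of these markers in the results was not tested.

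**Figure D1:**
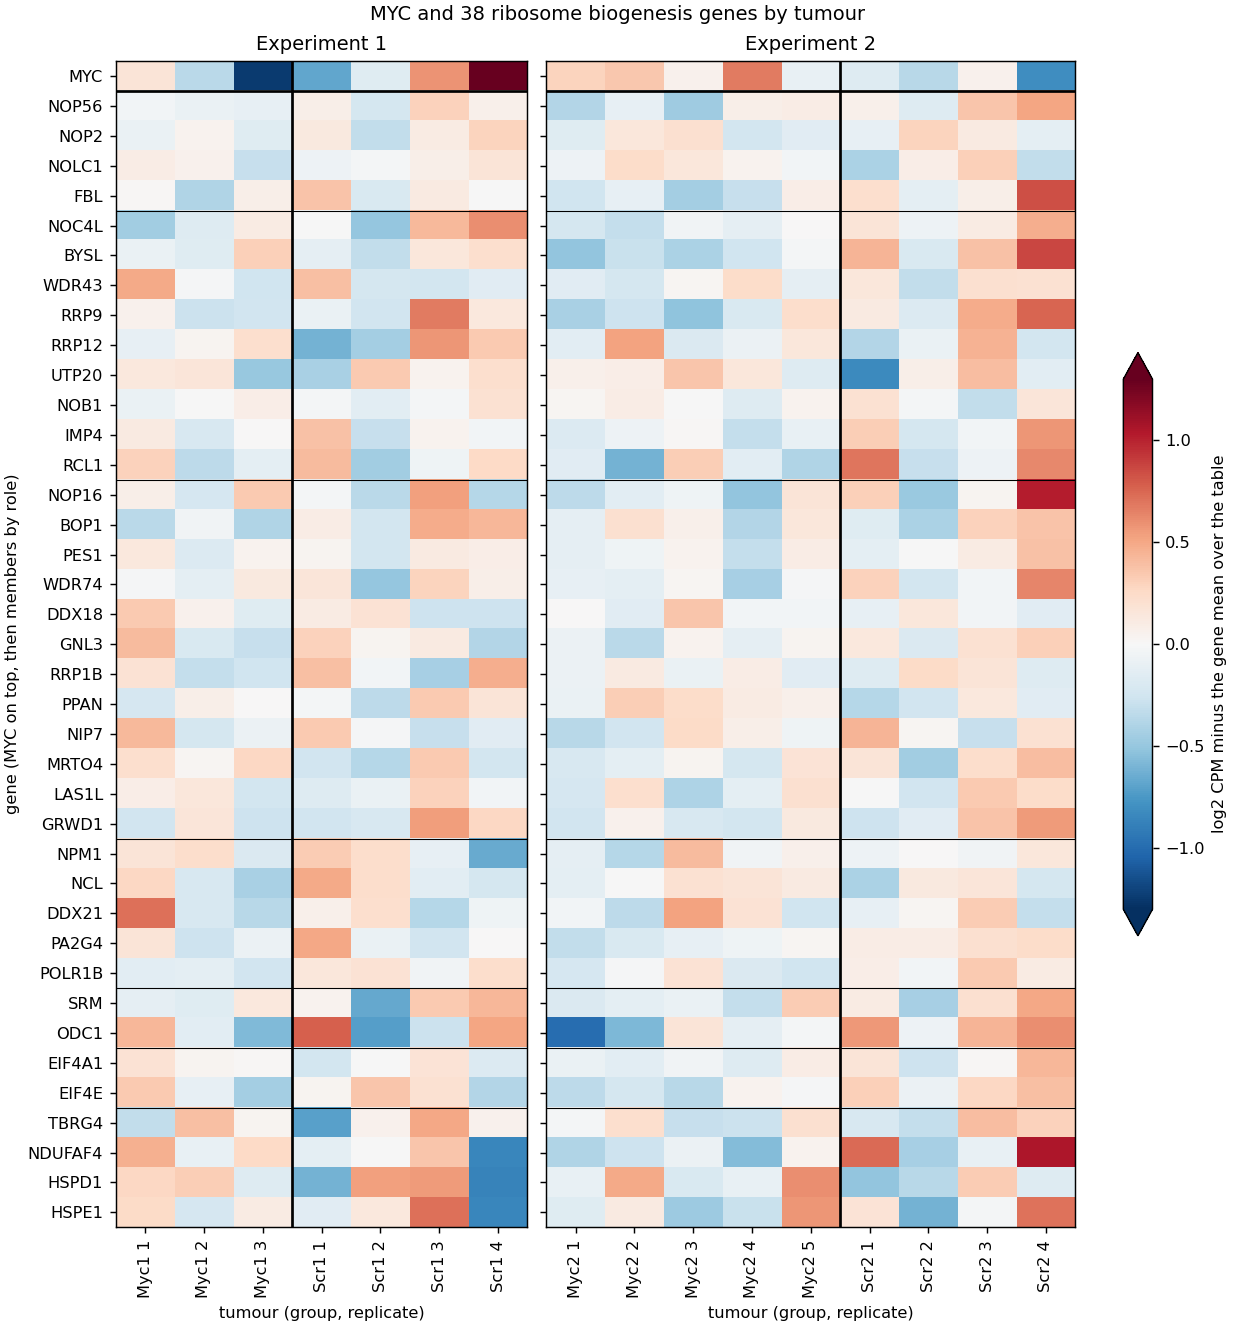
Level of MYC and of the 38 ribosome biogenesis genes in each tumour, as log2 CPM minus the mean of the gene over its table (colour, red above and blue below the mean, saturated at the ends of the scale), with the genes in rows by role and the Myc tumours left of the Scr tumours in each experiment. The Scr2 replicate 4 column was the highest of experiment 2 for 20 of 38 genes, against 27.1% of all genes tested, and its MYC level of 4.70 was the lowest.

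The genes span a wide range of abundance. The mean over a table ran from 14.1 to 741 CPM in experiment 1 and from 12.1 to 792 CPM in experiment 2. Per kilobase of the longest coding transcript, which was known for 37 of the 38 genes, NPM1, the nucleolar chaperone nucleophosmin, had the highest level, at 412 CPM per kilobase in experiment 1 and 446 in experiment 2. It was followed in both by EIF4A1, the RNA helicase of translation initiation, at 195 and 185 CPM per kilobase, and by NCL, the nucleolar RNA-binding protein nucleolin, at 153 and 167. The lowest level in both was that of EIF4E, the cap-binding protein, at 1.53 and 2.18 CPM per kilobase. Its longest annotated transcript has 11523 bases, so its level per length would be higher on a shorter transcript.

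In experiment 1 no ribosome biogenesis gene passed the test between the groups, and the differences were small. The mean over the 38 genes was 6.44, 6.26 and 6.23 log2 CPM in the Myc1 tumours, against 6.37, 6.20, 6.48 and 6.32 in the Scr1 tumours. The Myc1 values lay inside the range of the Scr1 values. Of the 38 genes, 22 were lower and 16 higher in Myc1, with a median log2 difference of -0.05, and 50.5% of all genes tested were lower, with a median of -0.003. None passed an adjusted p of 0.05, as was the case for all genes tested (0% called), and none had an unadjusted limma p under 0.05, against 3.48% of all genes. The smallest fold (Myc1 over Scr1) was 0.731 and the largest 1.29. For 37 of the 38 genes the 95% interval of the difference lay within a 2-fold change in either direction. The exception was NDUFAF4, with an upper bound of 1.00 on the log2 scale.

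The 5 smallest p-values in experiment 1 belonged to genes of different roles and directions. BOP1, which with PES1 and WDR12 forms a complex needed for the large subunit, had 5.98, 6.28 and 5.94 log2 CPM in Myc1 against 6.42, 6.09, 6.81 and 6.76 in Scr1. Its difference was -0.45 ± 0.23 (SE), with a limma adjusted p of 0.996. Scr1 replicate 2 lay within the Myc1 range and the other Scr1 tumours above it. PES1, its partner, stood at 7.26, 6.95 and 7.17 in Myc1 against 7.16, 6.89, 7.24 and 7.21 in Scr1, a difference of 0.003 ± 0.20 with the groups overlapping. POLR1B, the second-largest subunit of RNA polymerase I, was the only one of the 38 genes whose groups did not overlap, with 3.98, 3.98 and 3.86 log2 CPM in Myc1 against 4.26, 4.31, 4.06 and 4.34 in Scr1. Among all genes tested, 2.27% had non-overlapping groups with Myc1 lower, and 4.21% in either direction, so 1 of 38 is near the background. The POLR1B difference was -0.30 ± 0.24, with an exact permutation p of 0.0571 and a limma adjusted p of 0.996. MRTO4, a factor of large subunit assembly, differed by 0.30 ± 0.22. NDUFAF4, an assembly factor of respiratory complex I, differed by 0.36 ± 0.30, and RRP9, a protein of the small nucleolar ribonucleoprotein that processes the small subunit RNA, by -0.28 ± 0.26. All 3 had overlapping groups.

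By role, the 4 genes of small nucleolar ribonucleoproteins and rRNA modification all had differences below 0 in experiment 1, from -0.17 to -0.09. FBL, the methyltransferase fibrillarin, stood at 6.72, 6.31 and 6.78 log2 CPM in Myc1 against 7.07, 6.51, 6.82 and 6.70 in Scr1. NOP56, which holds fibrillarin in the same particle, stood at 6.37, 6.31 and 6.30 in Myc1 against 6.48, 6.18, 6.70 and 6.47 in Scr1. In both genes the groups overlapped. Of the 12 genes of large subunit assembly 7 were below 0, of the 9 of small subunit assembly 5, and of the 5 of nucleolar structure and rRNA transcription 3. NOC4L, a small subunit factor with one of the lowest differences, at -0.30 ± 0.28, had 5.15, 5.43 and 5.72 in Myc1 against 5.60, 5.10, 6.02 and 6.21 in Scr1. NPM1 and NCL, which build the nucleolus, differed by 0.12 ± 0.24 and -0.21 ± 0.23. Both polyamine enzymes were below 0, ornithine decarboxylase ODC1 by -0.17 ± 0.35 and spermidine synthase SRM by -0.08 ± 0.26. The 4 mitochondrial factors were all above 0, with a median of 0.16. Among them HSPD1, the large subunit of the mitochondrial chaperonin, had 7.93, 7.97 and 7.48 in Myc1 against 7.04, 8.19, 8.21 and 6.78 in Scr1, and its partner HSPE1 had 6.97, 6.50 and 6.83 in Myc1 against 6.58, 6.85, 7.44 and 5.87 in Scr1. Scr1 replicate 4 was the lowest tumour for both chaperonin genes and the highest for MYC, and without it the HSPD1 difference was -0.015.

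**Figure D2:**
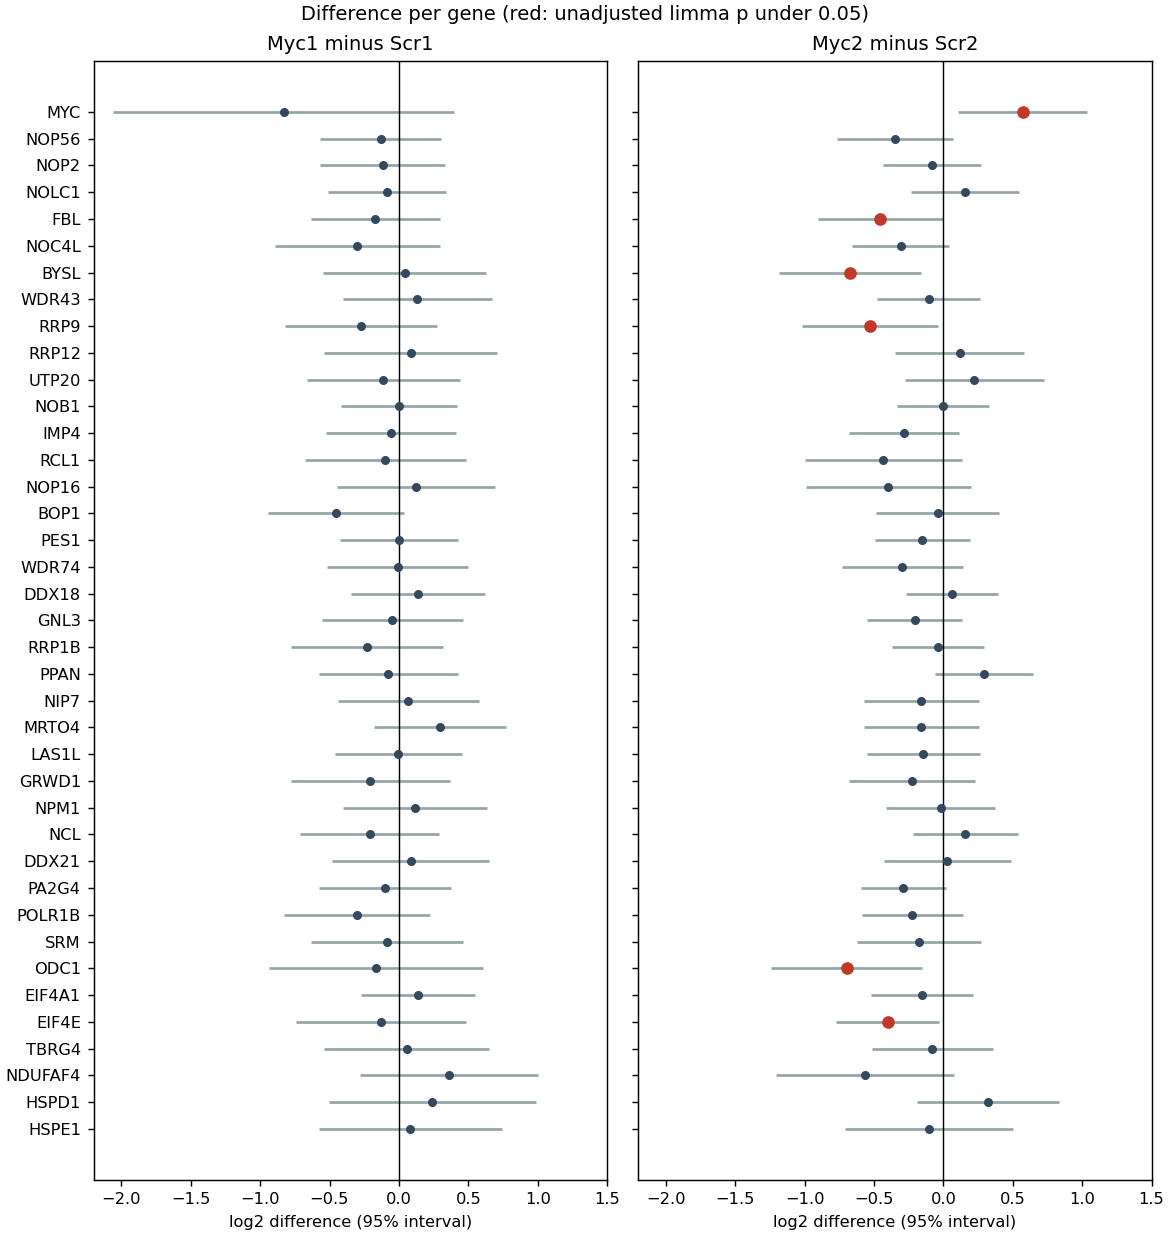
Log2 difference between groups for MYC and the 38 genes in experiment 1 (left, Myc1 minus Scr1) and experiment 2 (right, Myc2 minus Scr2), with points for the limma estimate and bars for its 95% interval, ordered by role as in the heat map. All 38 intervals in experiment 1 and 33 of 38 in experiment 2 include 0, and the 5 that do not lie below 0.

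In experiment 2 most ribosome biogenesis genes were slightly lower in the tumours labelled Myc2, in which MYC was higher. The mean over the 38 genes was 6.09, 6.22, 6.27, 6.16 and 6.34 log2 CPM in the tumours labelled Myc2, against 6.34, 6.15, 6.47 and 6.60 in those labelled Scr2. Both Scr2 replicates 3 and 4 lay above all Myc2 tumours, and Scr2 replicate 2 lay among the lowest. Of the 38 genes, 30 were lower and 8 higher in Myc2, with a median log2 difference of -0.16, while 51.8% of all genes tested were lower, with a median of -0.02. None passed an adjusted p of 0.05, as was the case for all genes tested (0% called). With an unadjusted limma p under 0.05 there were 5 of 38 genes (13.2%), against 13.4% of all genes tested, and all 5 were lower, as were 6.36% of all genes. The number of genes at that p-value is thus near the background, and it moved with single libraries. It was 2 without any one of Myc2 replicates 1, 2 or 3 or Scr2 replicate 4, 3 without Myc2 replicate 4 or Scr2 replicate 1, and 11 without Scr2 replicate 2. The share of all genes at that p-value moved too, to 27.3% without Scr2 replicate 2 and to between 4.99% and 13.4% without any one of the other 6 of these libraries. Without both libraries that stood apart, Scr2 replicates 1 and 4, 0 of 38 genes had a p under 0.05, against 3.39% of all genes, 23 were lower and the median was -0.09.

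The 5 genes were 2 of small subunit assembly, 1 of the small nucleolar ribonucleoproteins, 1 of polyamine synthesis and 1 of translation initiation. All 5 held an E-box in the windows described above, as did 17 of the 33 genes with a window. Holders of the motif were found in both directions, with HSPD1 and UTP20 above 0 and PES1 and WDR43 below 0. A link between the motif and the direction was not tested. BYSL, or bystin, which is needed to process the small subunit RNA, had 3.01, 3.23, 3.11, 3.26 and 3.50 log2 CPM in Myc2 against 3.96, 3.33, 3.90 and 4.39 in Scr2. Its difference was -0.67 ± 0.23 (SE, limma adjusted p = 0.370), and only Scr2 replicate 2 lay within the Myc2 range. In experiment 1 BYSL differed by 0.04 ± 0.28, with overlapping groups. ODC1, the first enzyme of polyamine synthesis, had 6.44, 6.85, 7.60, 7.31 and 7.40 in Myc2 against 7.99, 7.36, 7.87 and 8.03 in Scr2. Its difference was -0.70 ± 0.25 (limma adjusted p = 0.370), again with Scr2 replicate 2 as the only overlap. RRP9 had 4.71, 4.86, 4.61, 4.94 and 5.37 in Myc2 against 5.26, 4.96, 5.62 and 5.90 in Scr2. Its difference was -0.53 ± 0.22 (limma adjusted p = 0.370), and Myc2 replicate 5 lay above Scr2 replicates 1 and 2. EIF4E, the cap-binding factor, had 4.31, 4.42, 4.29, 4.70 and 4.63 in Myc2 against 4.96, 4.58, 4.91 and 5.04 in Scr2, a difference of -0.40 ± 0.17 (limma adjusted p = 0.370). Here too Scr2 replicate 2 was the tumour within the Myc2 range. FBL had 6.41, 6.56, 6.23, 6.37 and 6.75 in Myc2 against 6.89, 6.53, 6.74 and 7.51 in Scr2, a difference of -0.45 ± 0.20 (limma adjusted p = 0.370), and Scr2 replicate 4, without which the difference was -0.26, was well above the other tumours. Without Scr2 replicates 1 and 4 the differences were -0.39 for BYSL, -0.50 for ODC1, -0.39 for RRP9, -0.28 for EIF4E and -0.17 for FBL, and none had a p under 0.05.

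PA2G4, a growth-regulated nucleolar protein also called EBP1, was the only one of the 38 genes whose groups did not overlap in experiment 2, and it is named after its values were seen. It had 7.72, 7.84, 7.93, 7.98 and 8.06 log2 CPM in Myc2 against 8.12, 8.13, 8.24 and 8.27 in Scr2. The difference was -0.29 ± 0.14, with an exact permutation p of 0.0159 and a limma adjusted p of 0.371. Groups that do not overlap give an exact p at or near the smallest possible, so this p restates why the gene was named. Among all genes tested 1.61% had non-overlapping groups with Myc2 lower, and 3.01% in either direction. In experiment 1 PA2G4 had 8.41, 7.97 and 8.17 in Myc1 against 8.74, 8.15, 7.99 and 8.24 in Scr1, with overlapping groups and a difference of -0.10 ± 0.22.

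**Figure D3:**
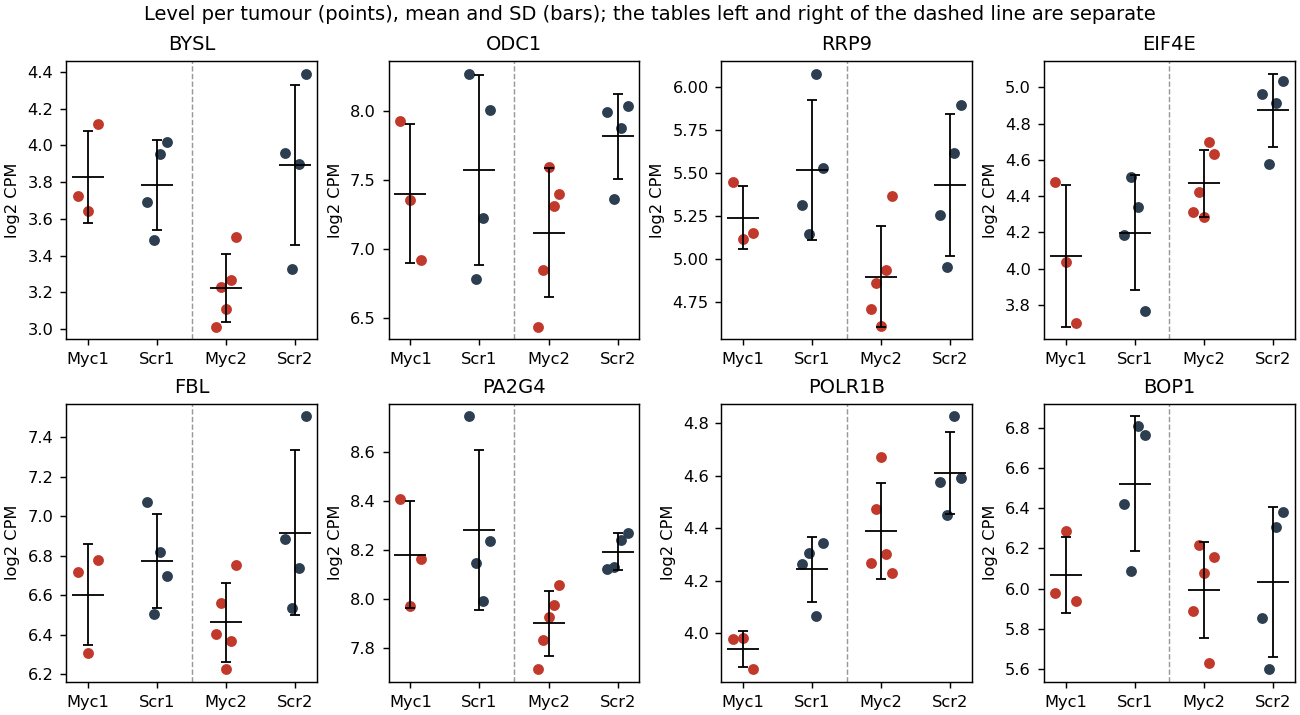
Log2 CPM of 8 genes of the set in each tumour (points) with the mean and SD of each group (bars), for Myc1 (n = 3), Scr1 (n = 4), Myc2 (n = 5) and Scr2 (n = 4), where levels left and right of the dashed line come from separately normalized tables. BYSL, ODC1 and EIF4E share the pattern of 1 Scr2 tumour within the Myc2 range, PA2G4 separates in experiment 2 and POLR1B in experiment 1.

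The other genes of experiment 2 are given by role. In large subunit assembly 10 of 12 genes were below 0, with NOP16 at -0.40 ± 0.27 the lowest and PPAN at 0.29 ± 0.16 the highest. PPAN had 5.21, 5.62, 5.54, 5.41 and 5.36 log2 CPM in Myc2 against 4.93, 5.05, 5.43 and 5.15 in Scr2, and only Scr2 replicate 3 lay within the Myc2 range. BOP1 and PES1 differed by -0.04 ± 0.20 and -0.15 ± 0.16. In small subunit assembly 7 of 9 were below 0, and UTP20, a large scaffold protein of the small subunit precursor, was the highest at 0.22 ± 0.23. UTP20 ran from 5.68 to 6.20 over the 5 Myc2 tumours, against 5.02, 5.92, 6.24 and 5.71 in the Scr2 tumours, with Scr2 replicate 1 far below the rest, and its difference was -0.011 without that library. Among the small nucleolar ribonucleoproteins, NOP56 had 6.14, 6.42, 6.06, 6.60 and 6.63 in Myc2 against 6.59, 6.36, 6.89 and 7.04 in Scr2, a difference of -0.35 ± 0.19. Of the 5 genes of nucleolar structure and rRNA transcription, 3 were below 0, with NPM1 at -0.02 ± 0.18, NCL at 0.16 ± 0.17 and POLR1B at -0.22 ± 0.17. The sign of NPM1 turned without Scr2 replicate 4, at 0.024. SRM stood at -0.18 ± 0.21. Of the mitochondrial factors, NDUFAF4 had 4.05, 4.16, 4.36, 3.87 and 4.48 in Myc2 against 5.17, 4.00, 4.34 and 5.49 in Scr2, a difference of -0.57 ± 0.29, with Scr2 replicates 1 and 4 the highest and a difference of 0.014 without them. HSPD1, with 7.96, 8.55, 7.86, 7.96 and 8.66 in Myc2 against 7.54, 7.69, 8.39 and 7.89 in Scr2, was the highest of the 38 genes at 0.32 ± 0.23. HSPE1, which shares its promoter region with HSPD1, was at -0.11 ± 0.28, with the groups overlapping.

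The values of Scr2 replicates 1 and 4 were set beside the length of the transcript. For 12 of the 38 genes these were the highest 2 of the 9 libraries, among them FBL, BYSL, ODC1, EIF4E, NOP16 and NDUFAF4, and for 4 (NOLC1, NCL, RRP12 and RRP1B) they were the lowest 2. Over all genes tested, they were the highest 2 for 21.4% and the lowest 2 for 19.5%. Of the 19 genes with a longest coding transcript of 2400 bases or less, 17 were higher in Scr2 replicates 1 and 4 than in replicates 2 and 3, with a median log2 difference of 0.42. Of the 18 longer genes 8 were higher, with a median of -0.12. Spearman's rho across the 37 genes with a known length was -0.68, against -0.59 across the 12077 tested genes with one. These are descriptions across genes, which are not independent replicates and share the same libraries. The Myc2 minus Scr2 difference had a rho with length of 0.33 across the 37 genes and 0.40 across all genes, and its median was -0.28 in the shorter genes and -0.09 in the longer ones. In experiment 1 the same rho was -0.16 and -0.19. The part of transcript length in the experiment 2 differences was not tested.

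**Figure D4:**
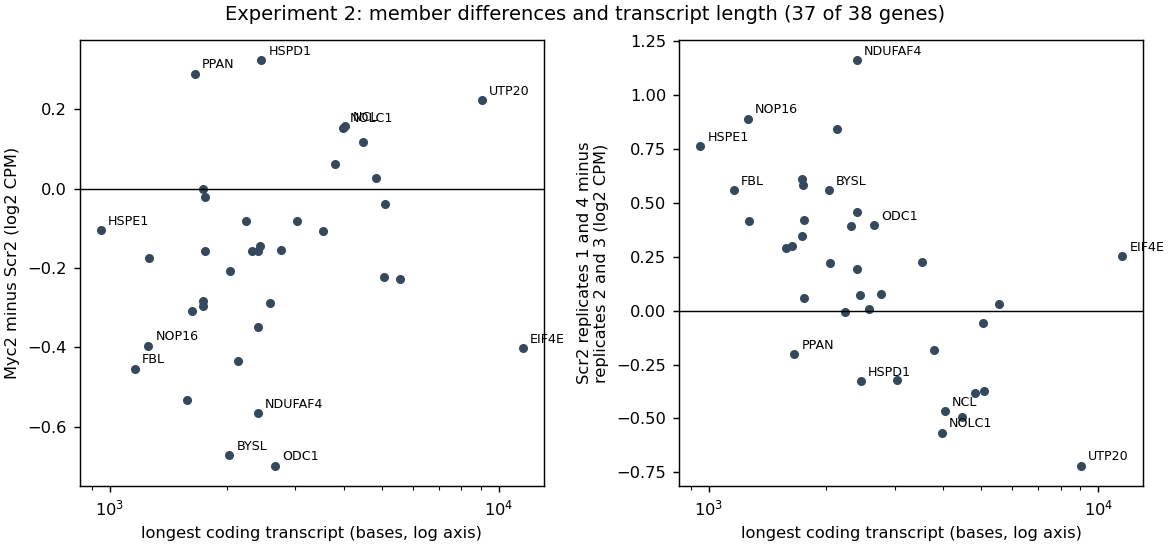
Experiment 2 differences of 37 ribosome biogenesis genes against the length of the longest coding transcript in bases (log axis), for the tumours labelled Myc2 minus those labelled Scr2 (left) and for Scr2 replicates 1 and 4 minus Scr2 replicates 2 and 3 (right), with 1 point per gene. Short genes lie mostly above 0 on the right and mostly below 0 on the left, while EIF4E, at 11523 bases, and PPAN do not follow the others.

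The remaining genes had overlapping groups in both experiments, and their log2 differences are given for experiment 1 and then experiment 2. Among the rRNA modification genes, the cytosine methyltransferase NOP2 had -0.12 and -0.08, and NOLC1, a chaperone of small nucleolar ribonucleoproteins, -0.09 and 0.15. In large subunit assembly, RRP1B had -0.23 and -0.04, GRWD1 -0.21 and -0.23, nucleostemin GNL3 -0.05 and -0.21, WDR74 -0.01 and -0.30 and LAS1L, which acts in cleavage of the internal spacer, -0.003 and -0.15. NIP7 had 0.07 and -0.16, and the helicase DDX18 0.14 and 0.06. Of these large subunit genes, all but DDX18 were below 0 in experiment 2. In small subunit assembly, RCL1 had -0.10 and -0.43, IMP4 -0.06 and -0.28 and WDR43 0.13 and -0.11. NOB1, the nuclease that trims the small subunit RNA, was nearest to equal in both. It had 6.69, 6.77 and 6.87 log2 CPM in Myc1 against 6.75, 6.64, 6.75 and 6.97 in Scr1, and 6.65, 6.72, 6.62, 6.45 and 6.67 in Myc2 against 6.82, 6.60, 6.30 and 6.78 in Scr2. DDX21 had 0.09 and 0.03, EIF4A1 0.14 and -0.16, and TBRG4, a mitochondrial RNA-binding protein, 0.06 and -0.08. EIF4E had -0.13 in experiment 1.

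Across both experiments, 18 of the 38 genes were lower in the Myc group both times, 4 were higher both times, 12 were higher in Myc1 and lower in Myc2, and 4 were lower in Myc1 and higher in Myc2. The sign was thus shared by 57.9% of these genes and by 45.7% of 13656 genes tested in both. Lower both times were 47.4% of these genes, against 24.7% of the genes tested in both. In each experiment alone, 22 and 30 of the 38 genes were lower, against 50.5% and 51.8% of all genes tested. A set that is mostly lower in each experiment is also more often lower both times, without any link between the experiments. The Pearson correlation of the differences between the experiments was 0.11 across the 38 genes, against -0.009 across the genes tested in both. The MYC difference had opposite signs in the experiments, at -0.83 and 0.57, and levels were never compared between the tables.

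The ribosome biogenesis genes were then set beside the MYC level of each tumour, with a limma slope of each gene on the log2 MYC level within groups. In experiment 1, where MYC spanned 3.84 to 6.75 log2 CPM, the slope was above 0 for 24 of 38 genes, with a median of 0.06 log2 per log2 unit of MYC, against 50.6% of all genes. None of the 38 had an unadjusted p under 0.05, against 3.27% of all genes, and 0% of all genes were called. The highest slopes were those of RRP12, a factor of small subunit export, at 0.29 ± 0.18, and UTP20, at 0.25 ± 0.16. The lowest were those of NPM1, at -0.26 ± 0.14, and HSPE1, at -0.20 ± 0.20 (SE, limma adjusted p = 1.00 for each of the 4). RRP12 had 5.35, 5.49 and 5.67 log2 CPM in Myc1 against 4.84, 5.01, 6.02 and 5.80 in Scr1. Its highest value belonged to Scr1 replicate 3, one of the libraries that stood apart. With 1 library left out at a time, the RRP12 slope ran from 0.15 to 0.43. The 2 Scr1 tumours with the most MYC had the most RRP12, while among the Myc1 tumours RRP12 was higher where MYC was lower. NPM1 ran the other way in Scr1, with 9.66, 9.73 and 9.31 in Myc1 against 9.83, 9.73, 9.39 and 8.85 in Scr1. The slope of HSPE1 turned to 0.33 without Scr1 replicate 4, the tumour with the most MYC. Without the 2 tumours farthest from the median MYC level, Scr1 replicate 4 and Myc1 replicate 3, 3 of 38 genes had a p under 0.05, against 5.88% of all genes, and 23 slopes were above 0, with a median of 0.19.

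In experiment 2, where MYC spanned 4.70 to 6.17 log2 CPM, the slope was above 0 for 10 of 38 genes, with a median of -0.26, against 49.7% of all genes above 0. The gene with a p under 0.05 was NOP16, a large subunit factor, at -0.95 ± 0.39 (limma adjusted p = 0.567). That makes 1 of 38, against 7.65% of all genes, with 0% called. On simulated data this fit recovered 0 of 200 genes with a slope of 1, so the absence of calls says little. NOP16 had 4.81, 5.01, 5.09, 4.63 and 5.32 log2 CPM in Myc2 against 5.46, 4.66, 5.18 and 6.17 in Scr2, and the highest value belonged to Scr2 replicate 4, the tumour with the least MYC. NDUFAF4 followed at -0.93 ± 0.44. The highest slopes were those of DDX21, an RNA helicase of the nucleolus, at 0.39 ± 0.35, and RRP1B, a nucleolar factor, at 0.31 ± 0.25. The median slope was -0.05 without Scr2 replicate 4. Without the 2 tumours farthest from the median MYC level, Scr2 replicate 4 and Myc2 replicate 4, it was 0.05, with 16 of 38 slopes below 0 and 0 genes with a p under 0.05, against 0.345% of all genes. The slopes of NOP16 and NDUFAF4 were -0.44 and -0.50 without Scr2 replicate 4. The size of the median slope in experiment 2 thus rested largely on Scr2 replicate 4, one of the libraries that stood apart.

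**Figure D5:**
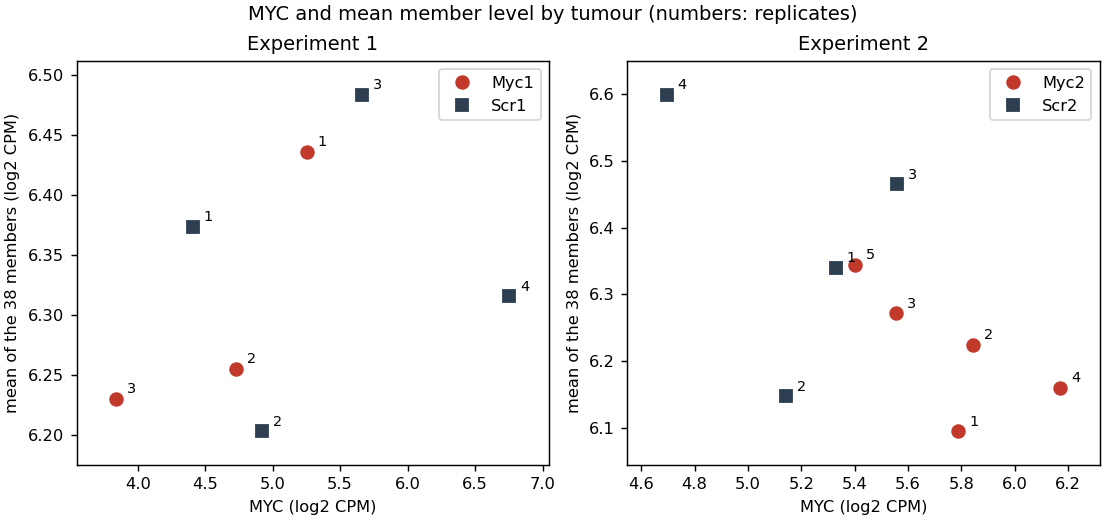
Mean log2 CPM of the 38 ribosome biogenesis genes against the log2 CPM of MYC, with 1 point per tumour, circles for Myc and squares for Scr groups and replicate numbers beside the points, for experiment 1 (left) and experiment 2 (right). Scr2 replicate 4, with the lowest MYC level of experiment 2 (4.70), has the highest mean (6.60), and in experiment 1 the tumour with the most MYC (6.75) has a mean of 6.32 in the middle of the range.

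The genes varied together only loosely from tumour to tumour. After the group means were taken out, the mean pairwise correlation was 0.11 over 7 tumours in experiment 1 and 0.22 over 9 in experiment 2, against 0.00 over all genes in both. Cytoplasmic ribosomal protein genes, which are the products that the assembly factors handle, had 0.74 and 0.85 in the same tumours. Within the list, the 5 genes of nucleolar structure and rRNA transcription had 0.48 and 0.36 and the 4 mitochondrial factors 0.53 and 0.52. The 12 genes of large subunit assembly had 0.15 and 0.21, the 9 of small subunit assembly 0.19 and 0.19, and the 4 of small nucleolar ribonucleoproteins and rRNA modification 0.28 and -0.06. The 2 polyamine enzymes had 0.41 and 0.55, and the 2 initiation factors 0.63 and 0.61. These correlations describe genes measured in the same few libraries and carry no test.

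Related gene lists gave the setting. Of 67 other ribosome assembly factors, 24 were lower in Myc1 and 48 lower in Myc2, with medians of 0.05 and -0.13, and 0 and 4 had an unadjusted p under 0.05, the 4 all lower, against 3.48% of all genes in experiment 1 and 13.4% (6.36% lower) in experiment 2. RRP15 and GAR1 had the smallest p-values of that list in experiment 2, at -0.54 ± 0.22 and -0.51 ± 0.23, and RPF2 and NSA2, both higher, in experiment 1, at 0.57 ± 0.32 and 0.50 ± 0.27, or 0.26 and 0.22 without Scr1 replicate 4. Of 27 subunits of RNA polymerases I and III, 12 were lower in Myc1 and 18 in Myc2, with medians of 0.02 and -0.28. In experiment 2, 5 of them had a p under 0.05, all lower (against the same 6.36%), with POLR3C at -0.69 ± 0.22 and POLR2L at -0.92 ± 0.34, or -0.60 for POLR2L without Scr2 replicate 4. In experiment 1, POLR2F stood at 0.42 ± 0.24, or 0.22 without Myc1 replicate 3, and POLR1A, the largest subunit of polymerase I, at -0.40 ± 0.24. None of these lists had a member called at an adjusted p of 0.05.

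Cytoplasmic ribosomal proteins were mostly above 0 in experiment 1. There 67 of 73 were higher in Myc1, with a median of 0.22 and RPL21 at 0.53 ± 0.27 (0.30 without Scr1 replicate 4), and 0 of 73 had a p under 0.05. In experiment 2 all 73 were lower in Myc2, with a median of -0.39, 13 had a p under 0.05 (against 6.36% of all genes in that direction), and RPL21 and RPS26 were at -0.80 ± 0.23 and -0.75 ± 0.23 (limma adjusted p = 0.370). Their mean level was 8.77, 8.75, 8.83, 8.43 and 8.98 log2 CPM in Myc2 against 9.47, 8.61, 8.83 and 9.79 in Scr2, so that Scr2 replicates 1 and 4 were again the highest. Their slopes on MYC were negative at a p under 0.05 for 27 of 73 in experiment 1 and 31 of 73 in experiment 2, against 1.89% and 2.99% of all genes, with none called after adjustment. These genes vary together, at mean correlations of 0.74 and 0.85, so the counts do not add up separate results. Scr1 replicate 4, with the most MYC (6.75), had their lowest mean in experiment 1, at 8.55. Scr2 replicate 4, with the least MYC (4.70), had their highest in experiment 2. Without it, the share of all genes with a slope p under 0.05 was 0.547%, against 7.65% with it. Many ribosomal protein genes have near-identical pseudogenes, which can make their counts less certain, and this was not tested.

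Within the MYC network, MXI1, which competes with MYC for its partner MAX, had differences above 0 in both experiments, at 1.09 ± 0.39 in Myc1 and 1.45 ± 0.47 in Myc2, neither past the threshold, with limma adjusted p-values of 0.996 and 0.370. Without Myc1 replicate 3 the first was 0.59. The transcriptional repressor MNT was at 1.14 ± 0.36 in Myc2, with a limma adjusted p of 0.370, and at -0.26 ± 0.28 in Myc1. MXD3 was at -0.48 ± 0.18 in Myc2, and MLXIP at -0.40 ± 0.25 in Myc1. MYC targets outside ribosome biogenesis gave medians of 0.04 in Myc1 (17 of 36 lower) and -0.09 in Myc2 (24 of 36 lower). In that list HK2, a hexokinase, was at 1.88 ± 0.44 and AIMP2 at -0.62 ± 0.26 in Myc2, and MCM2 at -0.53 ± 0.27 and NAP1L1 at 0.43 ± 0.24 in Myc1, or -0.32 for MCM2 without Myc1 replicate 3 and 0.22 for NAP1L1 without Scr1 replicate 4. Of 28 cell cycle genes, 18 were lower in Myc1 and 26 in Myc2. In Myc2, 8 had a p under 0.05, all lower (against the same 6.36%), with BIRC5 and CCNB1 at -0.68 ± 0.20 and -0.58 ± 0.17. Cell cycle genes vary together too, at mean correlations of 0.78 in experiment 1 and 0.46 in experiment 2. Their counts therefore do not add up separate results. In Myc1 the smallest p-values of that list were those of MCM2 and of MCM3, at -0.31 ± 0.22.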

How the data were processed

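The 38 genes, the other gene lists and the comparisons were chosen with earlier results of these data known. The authors deposited 1 table per experiment with log2 values per human gene. The values, taken back from log2, summed to 995054 to 998392 per sample, and their sorted values nearly coincided between samples of a table. The lowest values differed, from -4.91 to -2.54 on the log2 scale in experiment 1 and from -5.16 to -3.38 in experiment 2. The values were therefore read as log2 CPM, quantile-normalized within the table. Quantile normalization hides a change of most genes at once. The submitters' processing notes name STAR 2.6.0b, bcl2fastq 2.20.0 and Picard, and the builds hg19 and mm10. Which tool counted reads, with which strand setting, and whether mouse reads were separated is not given in the sources used here. Samples had an RNA integrity number of at least 7.2, per the labels. Read totals, and so depths, are unknown.

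The deposited log2 values were fitted in R 4.3.3 by limma 3.58.1 (trended, robust empirical Bayes) on genes at 1 CPM or more in at least 3 (experiment 1) or 4 (experiment 2) samples, with Benjamini-Hochberg adjustment over all genes and a threshold of 0.05. A log2(value + 1) transform had been planned for values that were not yet log2 and was not needed. A second fit had the MYC level of the tumour beside the group. An exact two-sided permutation test was added for MYC and single genes, with 0.0286 and 0.00794 as the smallest p-values possible in experiments 1 and 2. No symbol of the list was repeated in a table.

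The genes named with values are, by a rule, the 5 smallest p-values, the 3 largest differences each way and the 2 extreme slopes each way per experiment, a fixed set (NPM1, NCL, FBL, NOP56, BOP1, PES1, POLR1B, ODC1 and HSPD1) and 2 genes of each other list, of which 1 is not reported here. On simulated data, a 4-fold group difference (log2 of 2) was recovered for 77 of 100 genes in experiment 1 (13922 genes) and 74 of 100 in experiment 2 (14160 genes), a 2-fold one (log2 of 1) for 30 and 35 of 100. A slope of 1 was recovered for 117 of 200 genes in experiment 1 (13898 genes) and 0 of 200 in experiment 2 (14194 genes). Transcript lengths came from GENCODE v29. Alternatives were other pseudocounts, filters, limma settings, sample weights and centring, and left-out libraries.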

Additional observations from a re-analysis of the deposited data

Results flagged for a closer look

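Of 120 groups examined for a single tumour far from its group, 3 gave one, where chance gives about 1 in 20. DDX18, an RNA helicase of large subunit assembly, was at 6.60 log2 CPM in Myc2 replicate 3, and the nearest Myc2 tumour was at 6.24. WDR43, a small subunit factor, was at 6.15 in Scr1 replicate 1, with the nearest Scr1 tumour at 5.62, and at 5.60 in Scr2 replicate 2, with the nearest Scr2 tumour at 6.06.

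Opposite directions in the experiments stood out for MYC and NDUFAF4. The Myc1 minus Scr1 difference less the Myc2 minus Scr2 difference was -1.40 on the log2 scale for MYC and 0.93 for NDUFAF4. The tables were normalized separately, so these differences between the experiments were not tested.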

How the results depend on the processing

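No paired analysis was possible because the labels carry no replicate numbers shared between groups. With at least 5 CPM on average, 1 gene was called in experiment 1. Without the 2 tumours farthest in MYC, 20 genes were called for the experiment 1 slope, with 3 of the 38 genes at p under 0.05 against 5.88% of all genes (1 without the group term, against 9.18%) and an HSPE1 slope of 0.72. In experiment 2 the slopes gave 10 of 38 without the group term, against 28.7% of all genes, 0 without the 2 farthest tumours (16 below 0) and 0 without Scr2 replicates 1 and 4. Leaving out those Scr2 libraries gave 2 called genes, 0 of the 38 at p under 0.05, a MYC difference of 0.40 (exact permutation p = 0.238), and turned BOP1 (0.040), NCL (-0.075), NDUFAF4 (0.014), NPM1 (0.0079) and UTP20 (-0.14). UTP20 was -0.017 with sample weights. The causes were not tested.

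Leaving out 1 library at a time, called genes ranged from 0 to 2 in experiment 1, 0 to 9 in experiment 2 and 0 to 3 for the experiment 1 slope. Genes of the 38 at p under 0.05 ranged from 0 to 1 and 2 to 11 (11 without Scr2 replicate 2, against 27.3% of all genes) for the differences and from 0 to 2 and 0 to 6 for the slopes. The median of the 38 ran from -0.11 to 0.003 and -0.28 to -0.09, and the median slope from 0.03 to 0.10 and -0.36 to -0.05. MYC ran from -1.17 to -0.39 and 0.41 to 0.70. Genes that turned were HSPD1 (-0.015 to 0.46), NPM1 (-0.081 to 0.25), ODC1 (-0.43 to 0.073), PES1 (-0.075 to 0.092) and the HSPE1 slope (-0.36 to 0.33) in experiment 1, and BOP1 (-0.19 to 0.074), NPM1 (-0.13 to 0.070) and UTP20 (-0.011 to 0.40) in experiment 2. Of 60 values of single genes, 50 kept their sign in every alternative run. Unknown depth limits the lower genes.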
